A study of Oryza sativa Indica Group with 12 samples.

Results

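Under excess Fe, roots of the rice cultivars EPAGRI 108, known as tolerant to Fe toxicity, and BR-IRGA 409, known as susceptible, were compared with each other, and the genes described here are those whose level differed between the cultivars in excess Fe but not by as much as 2-fold in control. A probe set, the group of short array probes that reads 1 transcript, belongs to this group when it was called in excess Fe (Benjamini-Hochberg adjusted p under 0.05 by limma and a difference of at least 3-fold) and the control means of the cultivars were under 2-fold apart. This was so for 75 of 57258 probe sets, 53 lower and 22 higher in EPAGRI 108. Both cultivars are of the indica subspecies and grew first in vermiculite and then in hydroponics. From 20 days after germination they received 500 mg/L Fe (excess Fe) or 6.5 mg/L Fe (control), both as FeSO4, for 3 days. The control solution also received Na2SO4 to match its sulfur to that of excess Fe, so sodium differed between the treatments too. Total root RNA of each group was hybridised to 3 GeneChip Rice Genome Arrays labelled as biological replicates. The values are log2 signals, and a difference between the cultivars is given as EPAGRI 108 minus BR-IRGA 409. In the study's tables the Fe responses of EPAGRI 108 run opposite to the labels of its arrays. The labels are followed here, and what an exchange of them changes is given below.

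Rice takes up Fe with chelators of the mugineic acid family, which it makes from nicotianamine, and also as ferrous ions. In flooded soils ferrous Fe reaches high levels, and Fe inside the cell catalyses the formation of reactive oxygen species, which damage proteins and lipids. Excess Fe can be placed in ferritin or in the vacuole, and damaged proteins are held or refolded by heat shock proteins.

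Each array had a median of 5.16 to 5.22, and 30305 to 34108 probe sets per array lay above the brightest control probe set without a target in rice, which stood at 4.51 to 5.01 and is called the background below. Of the root markers, the silicon transporter genes Lsi1 and Lsi2 had 13.49 and 12.44 in EPAGRI 108 excess Fe and 13.57 and 11.93 in BR-IRGA 409 excess Fe. The 5 green tissue genes listed all had gaps below 0, with a median of -0.81 in excess Fe (from -1.80 to -0.24) and of -1.49 in control. In excess Fe 2 of them had an adjusted p under 0.05 by limma and 1 was called lower in EPAGRI 108, the chlorophyll-binding protein gene CAB2R (9.57, against 11.37 in BR-IRGA 409), and in control 2 were called lower. Their summed signal, as log2, was 10.18 to 10.50 in EPAGRI 108 excess Fe and 11.58 to 11.96 in BR-IRGA 409 excess Fe, and in control 10.31 to 11.45 in EPAGRI 108 and 12.19 to 13.11 in BR-IRGA 409. Green tissue transcripts thus ran in the direction of the lower genes below, although RBCS1, of the small subunit of Rubisco, lay under the background in both cultivars. The part of green tissue in the results was not tested. EPAGRI 108 control replicate 1 stood farthest from its group (correlation with the mean of the other 2 arrays 0.987, against 0.992 to 0.996 on the other 11 arrays). A lower signal in 1 cultivar can mean less transcript or a sequence that matches the probes less well, and fewer cells of a type or less RNA per cell, and these cannot be told apart here. No sequences are printed, as no table used here holds those of the probes or genes.

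In excess Fe 679 probe sets, 1.19% of all, were called between the cultivars, 338 higher (0.59%) and 341 lower (0.596%) in EPAGRI 108. For 604 of them the control gap was 2-fold or more. An unadjusted p under 0.05 by limma in excess Fe, at any fold, was reached by 6590 of the 57258 probe sets. In control 638 (1.11%) were called, and 507 were called in both treatments, all in the same direction, which is 74.7% of the excess Fe calls and 79.5% of the control calls. The 75 probe sets are 11.0% of the excess Fe calls. The opposite kind, called in control with under 2-fold between the cultivars in excess Fe, also came to 75 (39 higher and 36 lower in EPAGRI 108). The excess Fe groups did not overlap for any of the 75 probe sets, against 16.4% of all probe sets without overlap, but the choice by this gap makes that likely, and the excess Fe gaps below are given with no test.

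**Figure D1:**
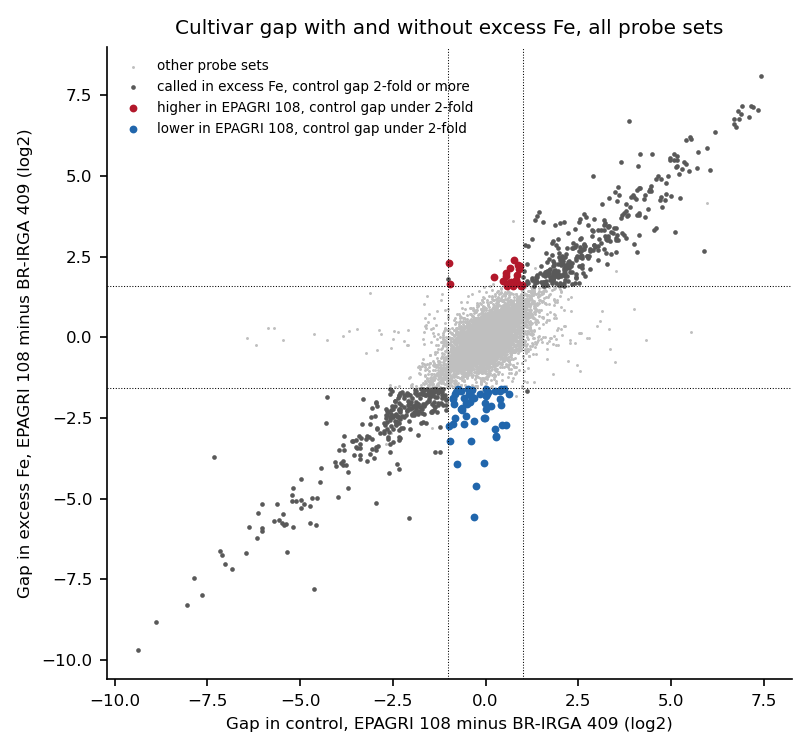
Gap between the cultivars (EPAGRI 108 minus BR-IRGA 409, log2) in control on the horizontal axis and in excess Fe on the vertical axis, 1 point per probe set, with dotted lines at 2-fold in control and at 3-fold in excess Fe. Most called probe sets lie along the diagonal, and the 53 lower and 22 higher probe sets described here stand in the middle strip.

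The lower probe sets reached larger gaps than the higher ones. Over the 53 lower ones the median gap in excess Fe was -2.06 (from -5.57 to -1.59) and the median gap in control -0.31. Over the 22 higher ones the median gap in excess Fe was 1.76 (from 1.59 to 2.40) and the median gap in control 0.71, and over all probe sets the medians were 0.0094 in excess Fe and -0.0060 in control. The control gap had the sign of the excess Fe gap in 20 of the 22 higher and in 35 of the 53 lower probe sets. For 22 of the 75, all lower in EPAGRI 108, the 95% interval of the control gap lay inside 2-fold. For 9 of the 75 the control gap had an adjusted p under 0.05, a larger share than the 3.25% of all probe sets. At or under the background lay all 3 EPAGRI 108 excess Fe arrays in 24 of the 53 lower probe sets, and all 3 BR-IRGA 409 excess Fe arrays in 8 of the 22 higher ones. In 2 of these 8, probe sets without a gene, the EPAGRI 108 excess Fe arrays lay there too, so neither cultivar had signal above it. Where only 1 of the groups was so dim, values under an array's background were raised to it, so that the fold printed is a lower bound ("at least"). With every value treated so, 43 of the 75 gaps were still 3-fold or more and 32 were not (24 lower and 8 higher), and the median gap was -1.61 over the lower and 1.62 over the higher probe sets.

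The largest gap was that of the small heat shock protein gene HSP18.1 (LOC_Os03g16030, chromosome 3), a class I chaperone that binds unfolding proteins. One of its probe sets read 6.24, 6.42 and 6.35 on the EPAGRI 108 excess Fe arrays, against 10.72, 11.55 and 10.59 on the BR-IRGA 409 excess Fe arrays. In control it read 6.02, 5.99 and 5.76 in EPAGRI 108 and 6.19, 6.00 and 6.34 in BR-IRGA 409, so that only the susceptible cultivar with excess Fe stood apart. The gap in excess Fe was -4.62 (SE 0.21), or 24.5-fold. This probe set is of a kind whose probes can match other transcripts. The second probe set of the gene lay under the background on all EPAGRI 108 arrays (4.35 ± 0.18, SD, n = 3, in excess Fe) and at 9.92 ± 0.59 in BR-IRGA 409 excess Fe, at least 32.7-fold apart.

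2 more chaperone genes were in the group. HSP26.2, an organelle small heat shock protein gene, had 5.75, 6.16 and 6.06 in EPAGRI 108 excess Fe, against 7.28, 7.71 and 7.76 in BR-IRGA 409 excess Fe. In control HSP26.2 was already lower in EPAGRI 108, at 5.61 ± 0.18 against 6.36 ± 0.40 in BR-IRGA 409 (gap -0.75). Its excess Fe gap of -1.59 (SE 0.20) was among the 2 nearest to the 3-fold limit. This gap fell under that limit without EPAGRI 108 excess Fe replicate 1 (-1.47) or BR-IRGA 409 excess Fe replicate 2 (-1.53) or 3 (-1.50). LOC_Os04g01740, described as a putative chaperone of the HSP90 type, had 3.34, 4.60 and 3.43 in EPAGRI 108 excess Fe, all under the background, against 5.33, 7.60 and 5.94 in BR-IRGA 409 excess Fe, at least 2.64-fold. A second probe set of this gene was in the group too, but with EPAGRI 108 excess Fe under the background its gap is bounded at only 1.28-fold, and 2 others had gaps of -0.39 and -0.20. Of 19 small heat shock protein genes that the annotation names, 2 were called lower in EPAGRI 108 and 0 higher (median gap -0.071), while 9 had an unadjusted p under 0.05 at any fold. Of 8 other chaperone genes 2 were called lower and 0 higher (median gap -0.014). The second of these is CLPB1, a disaggregase of the HSP100 family, which was also lower in EPAGRI 108 control (-2.18 in excess Fe and -1.87 in control) and is therefore not in the group. The other 17 small heat shock protein genes were not called.

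Enzymes that modify small molecules made up the next set, all lower in EPAGRI 108. LOC_Os01g41430, described as a flavonol glycoside glucosyltransferase, an enzyme type that joins sugars to flavonoids, had 5.11, 5.58 and 5.16 in EPAGRI 108 excess Fe, against 8.95, 9.52 and 9.11 in BR-IRGA 409 excess Fe (gap -3.91, SE 0.22). In control it had 4.56 ± 0.43 in EPAGRI 108 and 4.61 ± 0.18 in BR-IRGA 409, both near the background. The 3 BR-IRGA 409 excess Fe arrays were the only high ones, and the control gap was -0.049. Only 2 glycosyltransferase genes could be listed, both through tables of genes that the study chose on these arrays, and the other had a gap of -1.28.

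3 genes described as cytochromes P450 of the 72A type, a family whose oxygenases act on hormones, specialised metabolites and foreign compounds, were lower in EPAGRI 108 excess Fe. LOC_Os01g41800 and LOC_Os01g41810, which have consecutive locus names on chromosome 1, had gaps of -2.03 (SE 0.37) and -2.51 (SE 0.31). LOC_Os01g41800, of which one description says pseudogene, read 7.28, 7.08 and 8.69 in EPAGRI 108 excess Fe, against 9.77, 9.84 and 9.54 in BR-IRGA 409 excess Fe. LOC_Os01g41810 read 2.63, 2.70 and 4.12 in EPAGRI 108 excess Fe, under the background, against 5.68, 5.62 and 5.69 in BR-IRGA 409 excess Fe, at least 1.71-fold. In both genes EPAGRI 108 excess Fe replicate 3 was the highest of its group. LOC_Os01g43774 had 5.73 ± 0.42 in EPAGRI 108 excess Fe and 7.40 ± 0.27 in BR-IRGA 409 excess Fe, and its gap of -1.66 was under 3-fold without EPAGRI 108 excess Fe replicate 1 (-1.46) or BR-IRGA 409 excess Fe replicate 2 (-1.51). Of 45 cytochrome P450 genes listed, 1 was called higher and these 3 lower in excess Fe (median gap -0.093), and 3 were called higher and 0 lower in control. The 3 were listed through the study's own tables, which hold genes chosen on these arrays, so their call is not independent evidence about the family.

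Other redox enzymes followed. LOC_Os03g05910, described as a monooxygenase, read 7.50, 7.54 and 7.93 in EPAGRI 108 excess Fe, against 9.17, 10.31 and 9.22 in BR-IRGA 409 excess Fe (gap -1.91, SE 0.28). Without BR-IRGA 409 excess Fe replicate 2, the highest array, the gap was -1.54, under 3-fold. LOC_Os12g12590, described as an NADP-dependent oxidoreductase and named here after its values were seen, had 8.36 ± 0.46 in EPAGRI 108 excess Fe and 9.97 ± 0.14 in BR-IRGA 409 excess Fe. LOC_Os03g07226 and LOC_Os03g07234, both described as thioredoxin-like proteins of the chloroplast (LOC_Os03g07226 was named after its values were seen), were lower too. LOC_Os03g07226 lay under the background in EPAGRI 108 excess Fe and at 6.39 ± 0.16 in BR-IRGA 409 excess Fe, at least 2.82-fold apart, while its other probe set had a gap of only -1.03 and was not called. LOC_Os03g07234 had a gap of -2.71 (SE 0.55) and read 4.07, 3.31 and 6.25 in EPAGRI 108 excess Fe, against 7.63, 7.40 and 6.75 in BR-IRGA 409 excess Fe, so that EPAGRI 108 excess Fe replicate 3 came close to the other cultivar. Its call did not pass without EPAGRI 108 excess Fe replicate 1 (adjusted p = 0.0585) or 2 (adjusted p = 0.051) or BR-IRGA 409 excess Fe replicate 1 (adjusted p = 0.0587) or 2 (adjusted p = 0.0613), by limma. The antioxidant enzymes proper, 14 genes of ascorbate peroxidases, catalases, superoxide dismutases and related families, had 0 called in either direction by limma and 0 by the methods' t-test at 3-fold, with 1 at an unadjusted p under 0.05, and the largest gap in size was 0.60.

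Genes of ion transport and mineral nutrition were few. LOC_Os06g48810, described as the cation transporter HKT1, which carries Na+ in rice roots, read 6.29, 6.19 and 6.35 in EPAGRI 108 excess Fe, against 8.04, 8.61 and 8.50 in BR-IRGA 409 excess Fe (gap -2.11, SE 0.16). In control it had 6.23 ± 0.25 in EPAGRI 108 and 5.82 ± 0.17 in BR-IRGA 409, groups that met at 5.95. The control solution held the added Na2SO4, and the part of sodium in these values was not tested. Of 24 potassium and sodium transporter genes of the HAK and HKT families LOC_Os06g48810 was the only one called in excess Fe (median gap -0.020). An unadjusted p under 0.05 at any fold was reached by 6. LPR1 (LOC_Os01g03530) encodes a multicopper oxidase, a family whose Arabidopsis member of this name oxidises ferrous Fe and adjusts root growth to low phosphate. LPR1 read 8.09, 8.59 and 8.29 in EPAGRI 108 excess Fe, against 10.14, 10.91 and 10.09 in BR-IRGA 409 excess Fe (gap -2.06, SE 0.21), while in control it had 7.78 ± 0.25 in EPAGRI 108 and 8.28 ± 0.11 in BR-IRGA 409. LOC_Os03g05334, annotated as a transcript that codes for no protein, had 7.47, 7.29 and 7.41 in EPAGRI 108 excess Fe, against 8.59, 10.03 and 10.30 in BR-IRGA 409 excess Fe. In all 3 genes the EPAGRI 108 excess Fe arrays lay close to the control arrays of both cultivars and the BR-IRGA 409 excess Fe arrays above them.

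Of the remaining lower genes, LOC_Os11g45990 codes for a protein with a von Willebrand factor type A domain, a domain of protein binding. This gene had the next largest measured gap after HSP18.1. It read 6.06, 6.73 and 5.98 in EPAGRI 108 excess Fe, against 10.64, 10.76 and 9.16 in BR-IRGA 409 excess Fe (gap -3.93, SE 0.75). Its control arrays were spread widely, at 6.10, 3.77 and 3.59 in EPAGRI 108 and 6.88, 4.78 and 4.09 in BR-IRGA 409, with replicate 1 the highest in both. A second probe set of this gene had a gap of 1.70 in the other direction (adjusted p = 0.119, limma), so the 2 probe sets disagree. LOC_Os11g06570, described both as a leucine-rich repeat and extensin family protein and as holding a mannose-binding lectin domain, read 7.51, 8.39 and 9.67 in EPAGRI 108 excess Fe, against 11.00, 11.51 and 11.18 in BR-IRGA 409 excess Fe (gap -2.71, SE 0.49). LOC_Os12g28137, of the AAA ATPase family, had 5.75 ± 0.55 in EPAGRI 108 excess Fe and 8.97 ± 0.25 in BR-IRGA 409 excess Fe, but in control it already had a gap of -0.97, just inside 2-fold. 2 further genes were named after their values were seen. Pir7b, an esterase gene known from the response of rice to bacteria, had 8.74 ± 0.62 in EPAGRI 108 excess Fe and 10.48 ± 0.44 in BR-IRGA 409 excess Fe. CSLF2, a synthase gene of the mixed-linkage glucan of grass cell walls, was under the background in EPAGRI 108 excess Fe and at 6.46 ± 0.25 in BR-IRGA 409 excess Fe, at least 2.97-fold.

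**Figure D2:**
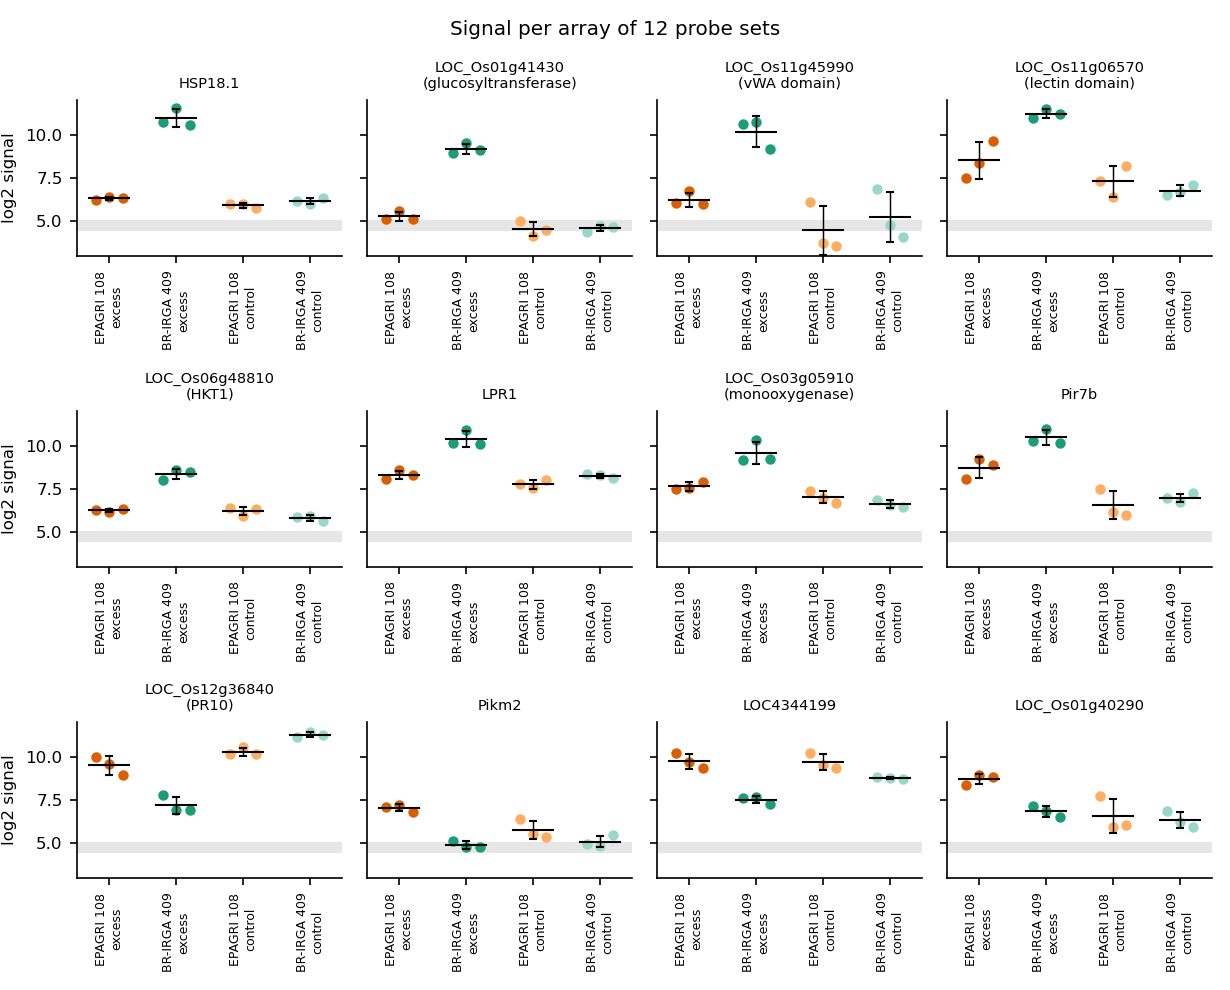
Log2 signal of 12 probe sets on each of the 12 arrays, with 3 points for each group (EPAGRI 108 excess Fe, BR-IRGA 409 excess Fe, EPAGRI 108 control, BR-IRGA 409 control), the mean as a line, the SD as a bar and the range of the background as a grey band. In the first 8 panels, such as HSP18.1 at 6.34 in EPAGRI 108 and 10.95 in BR-IRGA 409, the BR-IRGA 409 excess Fe group is the highest, and in the last 4 it lies below EPAGRI 108 excess Fe.

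Among the 22 probe sets higher in EPAGRI 108, 10 could be paired with a gene. The largest gap with a gene was that of LOC_Os12g36840, a pathogenesis-related protein of class 10 similar to the probenazole-inducible PBZ1, which rice makes on infection. It read 9.98, 9.60 and 8.94 in EPAGRI 108 excess Fe, against 7.77, 6.94 and 6.90 in BR-IRGA 409 excess Fe (gap 2.30, SE 0.27). In control the order was the other way, at 10.18, 10.55 and 10.14 in EPAGRI 108, against 11.17, 11.44 and 11.25 in BR-IRGA 409, and this control gap of -0.99 is the nearest to 2-fold of all 75. Of 5 pathogenesis-related genes listed, 4 of them from the study's tables, it was the 1 called.

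Pikm2, of the resistance protein type with a nucleotide-binding site and leucine-rich repeats, acts with a partner in resistance to rice blast. It read 7.10, 7.22 and 6.83 in EPAGRI 108 excess Fe, against 5.14, 4.76 and 4.81 in BR-IRGA 409 excess Fe (gap 2.15, SE 0.25), with a control gap of 0.67. A second probe set of the same gene was called in both treatments. It lay under the background in BR-IRGA 409, and EPAGRI 108 was at least 16.3-fold higher in excess Fe and at least 5.75-fold higher in control, so the 2 probe sets of this gene disagree on the control gap. On chromosome 11 of the reference, 6 genes stand between Pikm2 and LOC_Os11g45990, which had a gap in the other direction. Of 9 genes listed for this protein type 1 was called higher and 0 lower (median gap -0.099).

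LOC4344198 and LOC4344199 are direct neighbours on chromosome 7, and the tables used here give no function for either. LOC4344199 read 10.19, 9.68 and 9.33 in EPAGRI 108 excess Fe, against 7.64, 7.65 and 7.28 in BR-IRGA 409 excess Fe (gap 2.21, SE 0.24). Its other probe set had a gap of 3.06 in excess Fe and of 1.97 in control and so lies outside the group. LOC4344198 read 6.41, 6.52 and 6.57 in EPAGRI 108 excess Fe, against 4.81, 4.70 and 4.75 in BR-IRGA 409 excess Fe, where it lay near the background. LOC_Os01g40290, of unknown function, read 8.37, 8.97 and 8.83 in EPAGRI 108 excess Fe, against 7.15, 6.84 and 6.53 in BR-IRGA 409 excess Fe (gap 1.88, SE 0.40). Its call did not pass without EPAGRI 108 excess Fe replicate 2 (adjusted p = 0.0862) or 3 (adjusted p = 0.0681) or BR-IRGA 409 excess Fe replicate 2 (adjusted p = 0.0671) or 3 (adjusted p = 0.0882), by limma. The remaining 5 genes of the higher group have no function in the tables used and had gaps from 1.59 to 1.71, and each lost its call without certain excess Fe arrays. LOC4339414, at 11.04, 10.14 and 10.62 in EPAGRI 108 excess Fe against 9.82, 8.07 and 8.86 in BR-IRGA 409 excess Fe, lost it without EPAGRI 108 replicate 1 (gap 1.47) or 3 (1.68) or BR-IRGA 409 replicate 2 (1.27) or 3 (1.66). LOC4336039 lost it without EPAGRI 108 replicate 2 (1.56) or 3 (1.42) or BR-IRGA 409 replicate 3 (1.47). LOC4350947 lost it without EPAGRI 108 replicate 2 (1.53) or 3 (1.55) or BR-IRGA 409 replicate 1 (1.53) or 2 (1.56), all just under 3-fold. LOC4341294 lost it without EPAGRI 108 replicate 2 (1.51), and LOC4342314 without EPAGRI 108 replicate 2 (1.50) or BR-IRGA 409 replicate 2 (1.61) or 3 (1.48). The probe sets of these last 2 genes lay under the background in BR-IRGA 409 excess Fe, so that EPAGRI 108 was at least 2.39-fold higher for LOC4341294 and at least 1.82-fold higher for LOC4342314. A brighter probe set of LOC4342314 had 9.44 in EPAGRI 108 excess Fe and 8.17 in BR-IRGA 409 excess Fe, a gap of 1.27 that was under 3-fold and not called. The largest gap of the whole higher group was that of a probe set with no gene in the tables (9.28 in EPAGRI 108 excess Fe and 6.87 in BR-IRGA 409 excess Fe, gap 2.40). On 19 of the 22 higher probe sets EPAGRI 108 control replicate 1 was the highest of its 3 arrays, by over 2-fold on 9. Without that array 38 probe sets were in the higher group instead of 22, and without EPAGRI 108 control replicate 2 the number was 14.

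29 of the 75 probe sets, 17 lower and 12 higher, have neither a gene nor a locus in the tables used. The largest of the lower ones had 6.88 in EPAGRI 108 excess Fe and 9.96 in BR-IRGA 409 excess Fe. The share with exactly 1 gene, 42.7%, was near that of all probe sets, 39.2%. Probe sets whose probes match several transcripts of a family (suffix _s_at) were 8 of the 75, or 10.7%, against 4.94% of all. The kind whose probes can match other transcripts (suffix _x_at) went the other way, with 7 of the 75, or 9.33%, against 12.5% of all. By chromosome, 10 of the 46 placed probe sets (21.7%) lay on chromosome 1 and 8 (17.4%) on chromosome 3, which hold 15.3% and 13.4% of all placed probe sets. Chromosomes 4, 11 and 12 held 5 each (10.9%), against 8.62%, 4.80% and 5.12% of all, and chromosome 7 held 8.70% against 7.71%. The rest lay below their share: chromosomes 2 (4.35% against 11.6%), 5 (4.35% against 8.27%) and 6 (6.52% against 7.88%). So did 8 (2.17% against 6.77%), 9 (0% against 5.28%) and 10 (2.17% against 5.25%). Loci from the study's tables, of genes chosen on these arrays, alone placed 13 lower and 1 higher probe sets.

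The Fe responses within each cultivar set the 4 groups side by side. They share the excess Fe arrays with the choice of the group and are given as values. For EPAGRI 108 excess Fe minus control, the median over the 53 lower probe sets was 0.19 (from -1.51 to 2.18), against 2.17 (from -0.24 to 5.34) for BR-IRGA 409. By limma 1 of the 53 was called up in EPAGRI 108, where 0.283% of all probe sets were called up, and 39 were called up in BR-IRGA 409, where 1.1% were. The 1 in EPAGRI 108 is Pir7b (0 of 53 with the replicate number as a block within each cultivar), whose response was 2.18 there and 3.49 in BR-IRGA 409. In 51 of the 53 the BR-IRGA 409 response was the larger in size. One of the other 2 is LOC_Os11g12760, an O-methyltransferase gene, in which the response was -1.51 in EPAGRI 108 and -0.24 in BR-IRGA 409. Its gap of -1.64 had the adjusted p nearest to the limit (0.0392) and lost its call without any 1 of EPAGRI 108 excess Fe replicates 2 and 3, EPAGRI 108 control replicate 3, BR-IRGA 409 excess Fe replicates 2 and 3 and BR-IRGA 409 control replicates 2 and 3 (adjusted p from 0.0538 to 0.183).

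In the 22 higher probe sets the responses were spread over both cultivars. The median was 1.06 (from -0.78 to 2.15) for EPAGRI 108 and -0.13 (from -4.08 to 0.97) for BR-IRGA 409. By limma 3 were called up and 0 down in EPAGRI 108 (of all probe sets 0.0227% were called down there), while 2 were called down and 0 up in BR-IRGA 409 (of all probe sets 0.25% were called down there). The pathogenesis-related gene LOC_Os12g36840 had responses of -0.78 in EPAGRI 108 and -4.08 in BR-IRGA 409. With the replicate block within each cultivar 0 of the 22 were called up in EPAGRI 108, where the lowest adjusted p of all probe sets was then 0.0712, and the 4 probe sets of the 75 called up without the block all had an unadjusted p under 0.05 with it. The BR-IRGA 409 counts, 39 and 2, were the same with the block. LOC4342314 had 1.02 in EPAGRI 108 and -1.61 in BR-IRGA 409. LOC_Os01g40290 had the largest EPAGRI 108 response of the higher group, 2.15, with 0.49 in BR-IRGA 409.

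**Figure D3:**
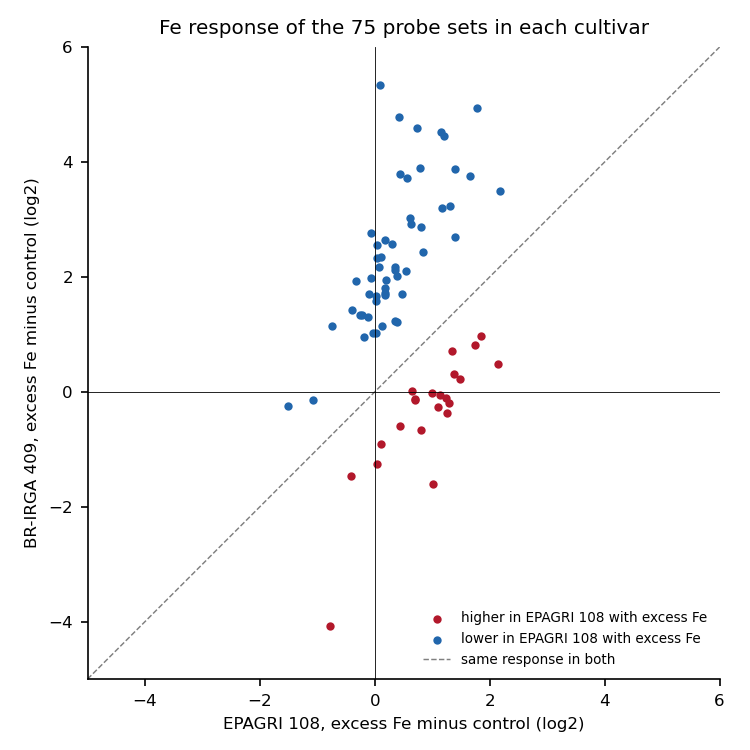
Fe response (excess Fe minus control, log2) of the 75 probe sets in EPAGRI 108 on the horizontal axis and in BR-IRGA 409 on the vertical axis, with a dashed line where both would be equal. The choice of the probe sets fixes their side of the line, above it for the lower and below it for the higher ones. The lower probe sets lie mostly near 0 in EPAGRI 108 (median 0.19, against 2.17 in BR-IRGA 409).

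Whether the gap itself changed with the treatment is the interaction, which equals the excess Fe gap minus the control gap and is therefore favoured by the way the probe sets were chosen. The interaction had an adjusted p under 0.05 by limma for 21 of the 75 (20 lower and 1 higher in EPAGRI 108). Of all probe sets 0.187% passed. The choice of the 75 favours a pass, so this share is no fair comparison and the count is a description only. For the other 54, among them LOC_Os11g45990, LPR1, Pir7b and Pikm2, a gap in excess Fe and a smaller one in control do not show that the gap changed. The 21 include both HSP18.1 probe sets, LOC_Os01g41430, LOC_Os06g48810, CSLF2, LOC_Os03g05910, LOC_Os01g43774 and, as the only higher one, LOC_Os12g36840. With the replicate block within each cultivar the number was 26, of which 18 were among the 21. LOC_Os03g05910 then missed the limit (adjusted p = 0.086, limma), and LOC_Os12g28137 (adjusted p = 0.00441), LOC_Os11g06570 (adjusted p = 0.0241), LOC_Os01g41810 (adjusted p = 0.0123) and LOC4344199 (adjusted p = 0.01) passed it. As a random block it was 35.

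If the EPAGRI 108 treatment labels were exchanged, so that its arrays labelled control were set against BR-IRGA 409 excess Fe, 381 probe sets would be called higher and 708 lower. The 75 probe sets answer this unequally. Of the 53 lower ones 50 would be called lower still, since EPAGRI 108 had low levels in both treatments, as in HSP18.1 (-5.03 and -5.65 for its 2 probe sets). Of the 22 higher ones 3 would be called higher still. With the control gap under 2-fold as well, 36 of the 75 would be kept, and 48 higher and 142 lower would be in the group.

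Genes that store Fe or take it up were absent from the group. OsIRO3, a regulator of the response to Fe deficiency, is counted with the uptake genes. Of the 17 genes 0 were called in excess Fe by limma and 0 by the methods' t-test at 3-fold, while 10 were called in control. An unadjusted p under 0.05 by limma with any fold was reached by 0 of the 17, against 6590 of all 57258 probe sets. An adjusted p under 0.05 was reached by 0 of the 17 and by 3.65% of all probe sets. For 15 of the 17 the 95% interval of the excess Fe gap lay inside 2-fold. Of the 17, 14 stand in the study's tables of genes chosen on these arrays, 5 of which were found only there, so their control gaps are not independent evidence. The ferritin genes OsFER1 and OsFER2, which store Fe, had excess Fe gaps of -0.12 (95% interval -0.46 to 0.22) and -0.11 (-0.48 to 0.27), against control gaps of 1.05 and 1.07. The probe set of OsFER1 has the suffix _s_at, so the ferritin values may not be separate readings. OsVIT2, which moves Fe into the vacuole, read 12.82, 13.03 and 13.27 in EPAGRI 108 excess Fe, against 13.56, 13.27 and 13.39 in BR-IRGA 409 excess Fe, and 12.57, 12.09 and 11.85 in EPAGRI 108 control, against 9.37, 8.62 and 8.48 in BR-IRGA 409 control. Here BR-IRGA 409 control alone stood apart, on the low side.

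Of the 12 genes counted as uptake genes, the regulator OsIRO3 among them, 8 were called lower in EPAGRI 108 in control, where the gaps ran from -6.42 to 1.29. OsYSL15, which brings in Fe bound to mugineic acids, read 6.43, 5.01 and 5.16 in EPAGRI 108 excess Fe, against 5.55, 5.59 and 5.55 in BR-IRGA 409 excess Fe (gap -0.031, 95% interval -0.63 to 0.57). In control it read 6.57, 6.48 and 6.35 in EPAGRI 108, against 12.99, 12.78 and 12.89 in BR-IRGA 409, a gap of -6.42. OsNAS1, OsNAS2 and OsNAAT1, enzymes of nicotianamine and mugineic acid synthesis, had gaps in excess Fe of 0.30, -0.25 and -0.095, against -5.86, -6.20 and -5.47 in control. OsIRT1, which takes up ferrous Fe, had the widest excess Fe gap of the 17, 1.27 (95% interval -0.044 to 2.57, adjusted p = 0.456), with EPAGRI 108 excess Fe replicate 1 at 9.24 and the other 2 at 6.46 and 5.99, and a control gap of -1.57. Exchanging the EPAGRI 108 labels would give the 12 uptake genes gaps from -0.91 (OsNAS3) to 4.13 (OsIRT1) against BR-IRGA 409 excess Fe, with OsYSL15 at 0.90, OsNAS2 at 0.21 and TOM1 at -0.076. The storage genes would then be lower in EPAGRI 108 by gaps of -1.98 in LOC_Os04g45520, -1.24 in OsVIT2, -1.05 in OsFER2 and -0.94 in OsFER1, with OsVIT1 at 0.59.

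**Figure D4:**
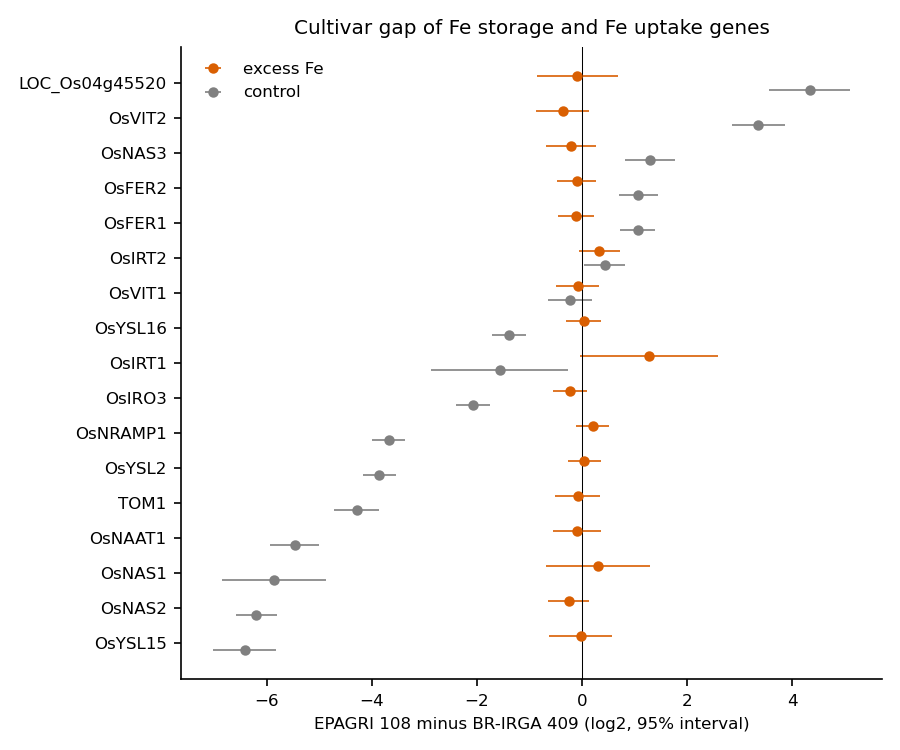
Gap between the cultivars (EPAGRI 108 minus BR-IRGA 409, log2, with its 95% interval) of 17 genes of Fe storage and Fe uptake, in excess Fe (orange) and in control (grey). The regulator OsIRO3 is counted among them. The excess Fe gaps lie around 0, the widest being 1.27 in OsIRT1, while the control gaps reach 4.33 and -6.42.

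Lists of genes of other kinds gave few calls in excess Fe. Of 22 such lists 7 held a gene of the group and 11 had 0 genes called by limma. In those 11 lists (174 genes) 34 genes had an unadjusted p under 0.05 by limma at any fold, against 6590 of all 57258 probe sets. By the methods' t-test at 3-fold 2 of the 174 passed, against 341 higher and 343 lower of all probe sets. Genes of lignin precursor synthesis and laccases (27 genes, median gap 0.027), class III peroxidases (15, median 0.013), aquaporins (25, median -0.015), expansins and wall transglycosylases (30, median 0.057), WRKY factors (10, median -0.36), dirigent proteins (4, median 0.96) and ribosomal proteins (25, median 0.0096) had 0 called in either direction. Of these lists only the peroxidases had genes called in control, 3 higher and 1 lower in EPAGRI 108. Of 14 chitinase genes 1 was called higher, LOC_Os11g47580 (4.50 in excess Fe), with 3.49 in control and hence outside the group. Many members of these lists were found through the study's tables or an incomplete symbol list, and no list was tested as a whole.

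Just outside the limits lay probe sets much like those inside. Next to the 3-fold limit, LOC4350947 and HSP26.2 were inside at 1.59 and -1.59, and 2 probe sets without a gene were outside at 1.58 and -1.58. Next to the control limit, LOC_Os12g36840 and a probe set without a gene were inside at -0.99 and -0.98, while CCS1 and another without a gene were outside at 1.01 and -1.01. Next to the limit of adjusted p, LOC_Os01g39136 and LOC_Os11g12760 were inside (0.0353 and 0.0392), and ADF-9 and LOC_Os06g29220 outside (0.0538 and 0.0708, limma), with gaps of -1.85 and -1.60. LOC_Os01g39136, with a gap of -1.60, lost its call without any 1 of EPAGRI 108 excess Fe replicates 1 and 3, EPAGRI 108 control replicate 2, the 3 BR-IRGA 409 excess Fe replicates and BR-IRGA 409 control replicates 2 and 3 (adjusted p from 0.0518 to 0.139). Of the 75 probe sets, 35 stayed in the group without any 1 of the 12 arrays (30 lower and 5 higher in EPAGRI 108).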

How the data were processed

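The authors scanned 12 arrays and computed log2 values with RMA in ArrayAssist, which corrects background, equalises the arrays' distributions and combines the probes of a probe set. Their methods then add a fixed quantity, of unstated size, to the linear values. The deposited log2 values were used as they are. Of 57381 probe sets 123 controls were left out. Group means were fitted with limma 3.58.1 (R 4.3.3) to the 12 arrays jointly, with p-values adjusted over 57258 probe sets. The methods' t-test (unadjusted, at 3-fold) was run as an alternative. Tested on simulated data of this comparison (57258 probe sets), 95% of the 4-fold and 99% of the 8-fold differences were found, with 0 false calls. The simulated arrays had independent normal noise and no other differences. They therefore did not cover the shared deviations of the real arrays or the limit on the control gap. Genes came from the array's annotation with RefSeq symbols (22436 probe sets with 1 gene, 95 with several, 34727 with none) and from locus names in the study's supplementary tables, whose fold changes and p-values were not used.

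The group, the gene lists and the rules were chosen with earlier results of these data known. The text names the 12 largest gaps in each direction, or all where there were fewer, as for the 10 higher ones (ranked with values at or under the background set to it, for probe sets with a gene and without overlap), up to 4 genes of each list, and those nearest each limit. A list has 1 probe set a gene, the one with the highest mean. The labels state no pairing of replicate numbers. Deviations of same-numbered excess Fe and control arrays had correlations over 0.1 in every pair within each cultivar (0.454, 0.302 and 0.151 in EPAGRI 108, 0.49, 0.209 and 0.108 in BR-IRGA 409). The Fe responses and the interaction were therefore also fitted with the number as a block within cultivar, an alternative chosen after the data were seen. Some differently numbered arrays correlated more, so these values do not settle the pairing. EPAGRI 108 excess Fe replicate 3 had 0.211 with control replicate 2. In BR-IRGA 409, excess Fe replicate 2 had 0.314 with control replicate 3, and excess Fe replicate 3 had 0.181 with control replicate 2. That the replicates came from separate plants rests on the labels, and their number limits the precision. Tables and figures used Python 3.11.15, pandas 2.3.3 and matplotlib 3.10.9.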

Additional observations from a re-analysis of the deposited data

Results flagged for a closer look

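In 10 genes of Fe storage and Fe uptake, the regulator OsIRO3 counted among them, the gap between the cultivars differed between the treatments by 3-fold or more. The test of that difference was by limma (excess Fe gap minus control gap, with the adjusted p of the interaction). This difference is named by gene below. It was above 0 in OsYSL15 (6.39, adjusted p = 8.85e-06), OsNAS1 (6.16, adjusted p = 0.00101), OsNAS2 (5.95, adjusted p = 2.88e-07), OsNAAT1 (5.38, adjusted p = 3.80e-06), TOM1 (4.21, adjusted p = 2.04e-05), OsYSL2 (3.90, adjusted p = 2.60e-06), OsNRAMP1 (3.88, adjusted p = 2.60e-06) and OsIRO3 (1.85, adjusted p = 0.00191). It was below 0 in LOC_Os04g45520, described as a membrane protein of the VIT family (-4.42, adjusted p = 0.00192), and in OsVIT2 (-3.72, adjusted p = 3.05e-04). OsYSL16 passed the test at under 3-fold (1.42, adjusted p = 0.0177). With the replicate number as a block within each cultivar the 10 all had an adjusted p under 0.05. These values follow the EPAGRI 108 array labels, and most of these genes were listed by the study from these arrays.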

How the results depend on the processing

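The counts of called probe sets (338 higher and 341 lower in EPAGRI 108) and of the group (22 and 53) were recomputed under each alternative. With the methods' t-test adjusted by Benjamini-Hochberg they were 209 and 187, with 7 and 15 in the group. With a limit of 2-fold they were 555 and 639, with 135 and 222 in the group. With 16 added to the linear values 216 were called lower and 27 lower were in the group. With the EPAGRI 108 labels exchanged 708 were called lower, and 48 and 142 were in the group. A control gap under 1.5-fold left 4 higher, and a 95% interval of it inside 2-fold left 0 higher and 22 lower. With values at background set to it, chosen after the data were seen, 35 lower and 22 higher were in the group, of which 42 were among the 75. Leaving out 1 array gave 322 to 344 called higher and 327 to 351 called lower, with 14 to 38 higher and 43 to 70 lower in the group. The extremes of the higher group came without EPAGRI 108 control replicates 2 and 1.

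With the replicate block over all 4 groups 340 and 348 were called and 22 and 57 were in the group, including all 75. With a random replicate block within each cultivar these were 337, 341, 22 and 52. Same-numbered excess Fe arrays of the 2 cultivars had correlations of deviations of 0.369, 0.265 and 0.0783, and EPAGRI 108 replicate 3 correlated more with BR-IRGA 409 replicate 2 (0.151), so the numbers were not taken to pair the arrays of the cultivars. Within each cultivar the correlations did not settle the pairing either, and the block was fitted there as an alternative. With the fixed block there, 0 of the 53 lower and 0 of the 22 higher probe sets were called up in EPAGRI 108, against 1 and 3 without it. With the random block 2 of the 53 were called up in EPAGRI 108 and the interaction passed in 35 of the 75, against 21. The BR-IRGA 409 counts, 39 of the lower called up and 2 of the higher called down, were the same under each block. Over all probe sets 162 were called up in EPAGRI 108 without a block, 236 with the random block and 0 with the fixed one. The interaction passed in 107 without a block, in 205 with the random block and in 117 with the fixed one. Of 29 named probe sets of the group none changed direction, 17 kept their call without any 1 array, and 8 passed the adjusted t-test. Signals near the background limit 24 of the 53 lower and 8 of the 22 higher ones.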
